A study of Mus musculus with 20 samples.

Results

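The 5 fetal occipital cortex arrays, of 20 arrays in the series, each set RNA of cocaine-exposed mouse fetuses against RNA of saline-exposed fetuses on one 2-colour slide. They were chosen by their titles, which carry the numbers 1, 1, 3, 4 and 5, and the second array numbered 1 is called replicate 1b here. Swiss Webster dams were injected under the skin with 20 mg/kg cocaine hydrochloride in 0.9% saline, or with saline alone, 2 times a day from embryonic day 8 to embryonic day 18. Control dams were pair-fed, so both sides of every ratio also share the handling, the injections and the anaesthesia with pentobarbital. On embryonic day 18, 1 h after the last injection, the occipital cerebral wall was taken, meaning cortex and the transient zones under it behind the level of the hippocampus. Each channel held tissue of 2 fetuses, each slide of a region had its own control and experimental litters, and labelling used 5 µg of RNA for every channel. The other groups used here are 5 fetal frontal arrays, from the cerebral wall in front of the striatum in fetuses treated in the same way, and 5 adult occipital arrays from offspring on postnatal day 30. Ratios without levels cannot show whether the defining genes of cortex were present in the tissue, so the tissue label was not checked.

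Cocaine blocks the transporters that return dopamine, serotonin and noradrenaline to nerve endings, and it crosses the placenta. In late gestation the mouse cerebral wall still holds dividing radial glia and intermediate progenitors, newborn neurons on their way to the cortical plate, and growing axons. Dopamine receptors are present in this wall before birth. Immediate early genes such as Fos, Jun, Egr1 and Arc are transcribed within the hour when neurons are strongly stimulated, which makes them a direct readout in tissue taken soon after an injection.

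All values are log2 ratios relative to the median of the array, where 1 unit is a factor of 2, and values above 0 are likely higher in cocaine-exposed tissue. That direction follows from the labels, which name cocaine tissue for channel 1 and saline tissue for channel 2; it is not stated for the values, no dye swap is labelled, and a fixed dye difference of a probe stays in its mean. Means are given ± SE of the limma fit over 5 arrays (n = 5), and a gene rose or fell only where its Benjamini-Hochberg adjusted p was under 0.05. The number of arrays limits the precision, and signal over background is unknown. In tissue of several cell types, fewer cells of a type and less RNA per cell cannot be told apart.

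The 5 arrays differed in technical ways that touch every result. Pearson correlations of their ratios across probes lay between 0.22 and 0.56, and that of replicates 1 and 1b was 0.32. Replicates 1 and 1b were kept as separate samples. The correlation cannot decide whether they repeat the same sample, because position trends were still in these values. The median absolute deviation of the ratios was lowest in replicate 4 (0.51) and highest in replicate 5 (0.88). A smooth over position on the slide, with rows of 215 probes inferred from the probe number, took up from 20.1% of the variance in replicate 3 to 47.4% in replicate 1b. On the fetal frontal arrays this share was 4.99% to 20.6%, and on the adult occipital arrays 3.83% to 11.2%. In the last 21 places of the row the median ratio was -2.52 in replicate 1b and between -0.56 and -0.08 on the other 4 arrays. Genes are therefore called as reported, and the text says where a call was lost, or the mean of a called gene moved by over 1.5 times, when the position trend was removed.

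**Figure D1:**
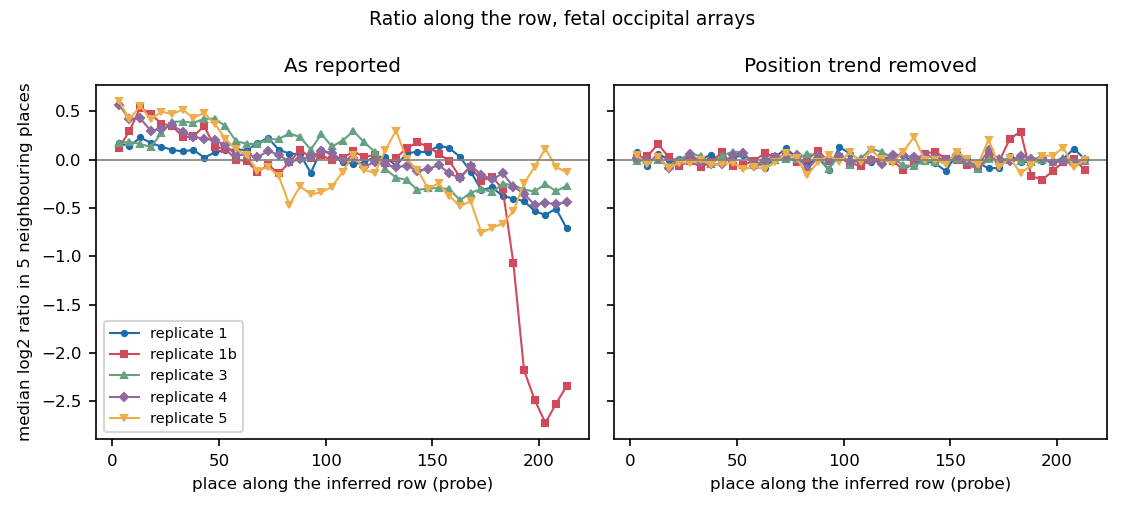
Median log2 ratio of cocaine over saline in groups of 5 neighbouring places along the inferred row of 215 probes, 1 line for each of the 5 fetal occipital arrays, as reported (left) and with the position trend removed (right). As reported all arrays start above 0 and end below it, replicate 1b falling to a median of -2.52 over the last 21 places; after removal the lines stay near 0.

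Of 22574 probes tested, 1743 (7.72%) passed: 799 were higher (3.54%) and 944 lower (4.18%) in cocaine-exposed occipital cortex. With the position trend removed 726 passed (3.22%), of which 184 were higher (0.815%) and 542 lower (2.4%). Between both fits 393 probes passed in the same direction, 92 higher and 301 lower, and 0 passed in opposite directions. The count dropped when any 1 array was left out. Without replicate 1 the count was 1, without replicate 1b it was 5, and without replicate 3, 4 or 5 it was 0. With replicates 1 and 1b averaged into 1 sample it was 2411, 1144 higher and 1267 lower. At an unadjusted p under 0.05, 7466 probes passed with all arrays. When the spread was estimated from all 20 arrays, 5576 passed (24.7%), 2380 higher (10.5%) and 3196 lower (14.2%), among them 1739 of the 1743. The mean of a probe is the same in both fits, so its direction could not differ.

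Genes at the top and the bottom of this comparison were taken from the probes that passed in both fits with the same sign on all 5 arrays, 74 higher and 149 lower. The 12 highest and the 12 lowest are described here. Mtcl1 (chromosome 17), which links microtubules to each other, and Col1a2 (chromosome 6), the alpha 2 chain of type I collagen, stood at the 2 ends. They are shown with the 250 bases before their annotated starts (RefSeq, GRCm38.p6, 5′ to 3′ on the strand of the gene), because both passed without replicate 1b and also with all trends removed. Capitals mark a CCAAT box. The window of Mtcl1 is chr17:66449751-66450000 on the minus strand and that of Col1a2 is chr6:4505368-4505617 on the plus strand.
Mtcl1: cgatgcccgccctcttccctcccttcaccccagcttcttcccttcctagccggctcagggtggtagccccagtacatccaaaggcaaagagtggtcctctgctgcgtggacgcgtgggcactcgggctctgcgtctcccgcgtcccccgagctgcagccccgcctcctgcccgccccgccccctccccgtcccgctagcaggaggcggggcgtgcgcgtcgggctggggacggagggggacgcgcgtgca
Col1a2: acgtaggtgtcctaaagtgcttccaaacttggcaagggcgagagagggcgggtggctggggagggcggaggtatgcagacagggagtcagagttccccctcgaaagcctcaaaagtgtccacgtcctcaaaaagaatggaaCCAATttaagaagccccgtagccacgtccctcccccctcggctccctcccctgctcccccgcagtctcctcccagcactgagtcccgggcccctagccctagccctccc
Both strands were searched for the CCAAT box (CCAAT), the TATA box (TATAAA), the AP-1 site (TGACTCA) and the cAMP response element (TGACGTCA). Col1a2 held CCAAT once, its first base 109 bases before the start, and Mtcl1 held none of the 4. Over 27025 windows of the same length 34.5% held the CCAAT box, 13% the TATA box, 4.43% the AP-1 site and 1.62% the cAMP response element.

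Mtcl1 read 2.54, 3.98, 3.87, 3.80 and 4.0 on replicates 1, 1b, 3, 4 and 5. All arrays were far above 0 and replicate 1 was the lowest. The mean was 3.64 ± 0.29 (limma adjusted p = 0.0137), and 3.47 ± 0.28 with the position trend removed. A second Mtcl1 probe read 2.28 on replicate 1b and between 0.00 and 0.27 on the others, with a mean of 0.55 ± 0.37 that did not pass.

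Adpgk, an ADP-dependent glucokinase, read 2.52, 3.20, 3.75, 2.85 and 4.82 in the same order of arrays. Replicate 5 was the highest, and the mean was 3.43 ± 0.35 (limma adjusted p = 0.0344). Slc30a9, a zinc transporter, read 2.95, 1.95, 3.88, 2.0 and 3.02. Its lowest arrays were replicates 1b and 4, and its mean was 2.76 ± 0.33 (limma adjusted p = 0.0375). Top2b, the DNA topoisomerase found in neurons that have left the cell cycle, read 2.21, 2.20, 1.84, 2.38 and 1.98. These 5 values lay within a narrow range around a mean of 2.12 ± 0.23 (limma adjusted p = 0.0345). With the position trend removed Top2b was at 1.38 ± 0.23 and still passed.

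Il24, a cytokine of the interleukin 10 family, read 1.72, 2.16, 2.73, 1.57 and 2.02, with a mean of 2.04 ± 0.26. Rgs20, which shortens G protein signals, read 0.75, 2.94, 1.83, 1.47 and 3.18. Its arrays were far apart, replicates 1b and 5 being high and replicate 1 low, and the mean was 2.03 ± 0.38. Wbp2nl, a sperm protein that binds WW domains, read 2.03, 0.57, 4.13, 3.43 and 0.79. It was the named rise whose probe lay in the last 21 places of the row, and it stood at 2.19 ± 0.52 as reported and 3.05 ± 0.45 with the position trend removed. The others were 4933402J07Rik (1.99 ± 0.30), the intraflagellar transport gene Ift81 (1.92 ± 0.32), the odorant receptor gene Olfr25 (1.92 ± 0.30), the fibril-associated collagen gene Col14a1 (1.91 ± 0.28) and the Nudix hydrolase gene Nudt13 (1.88 ± 0.37). Olfr25 and Col14a1 stood at 1.20 and 1.23 once the position trend was removed. A second Col14a1 probe passed in the opposite direction at -1.60 ± 0.32 (limma adjusted p = 0.0397), so the direction of this gene is uncertain.

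Col1a2 read -3.58, -4.20, -2.32, -3.03 and -2.40 on replicates 1, 1b, 3, 4 and 5. It was low on every array and lowest on replicate 1b. The mean was -3.11 ± 0.33 (limma adjusted p = 0.0344), and -2.70 ± 0.34 with the position trend removed. The partner chain Col1a1, chosen after its values were seen, read -1.57, -4.32, -0.58, 1.16 and -0.56. These arrays fell on both sides of 0, and the mean of -1.17 ± 0.64 did not pass; it was -0.32 ± 0.41 without the position trend.

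Lhx8, a LIM homeobox gene of ventral forebrain neurons including cholinergic ones, read -2.22, -3.11, -2.61, -2.41 and -2.56. The arrays lay close together, and the mean was -2.58 ± 0.24 (limma adjusted p = 0.0270). Its probe lay in the last 21 places of the row; with the position trend removed replicate 1b moved to -0.03 and the mean to -1.42 ± 0.32, which still passed. Cd300lg, an adhesion receptor of blood vessel endothelium, read -2.57, -5.29, -2.46, -1.18 and -1.63, with replicate 1b far below the others. Its mean was -2.63 ± 0.53 as reported and -1.39 ± 0.31 with the position trend removed.

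The remaining falls were of the odorant receptor genes Olfr1301 (-2.68 ± 0.58) and Olfr862 (-2.67 ± 0.34), the transporter gene Abcg3 (-2.57 ± 0.43) and the hair keratin-associated gene Krtap15 (-2.54 ± 0.30). They were followed by Teddm3 (-2.45 ± 0.45), the dehydrogenase gene Dhrs7c (-2.44 ± 0.36), the liprin gene Ppfibp1 (-2.40 ± 0.41), the autophagy gene Epg5 (-2.39 ± 0.47) and 1700074P13Rik (-2.38 ± 0.46). Several of these falls were much smaller, though still past the threshold, once the position trend was removed. Olfr862 was then at -1.45, Abcg3 at -1.35, Teddm3 at -1.09, Dhrs7c at -1.34, Ppfibp1 at -1.08 and Epg5 at -1.31. Replicate 1b was the lowest array for 10 of the 12 named falls. Of the 12 named falls 8 had probes in the last 21 places of the row, which hold 9.77% of all probes; of the 12 named rises 1 did.

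**Figure D2:**
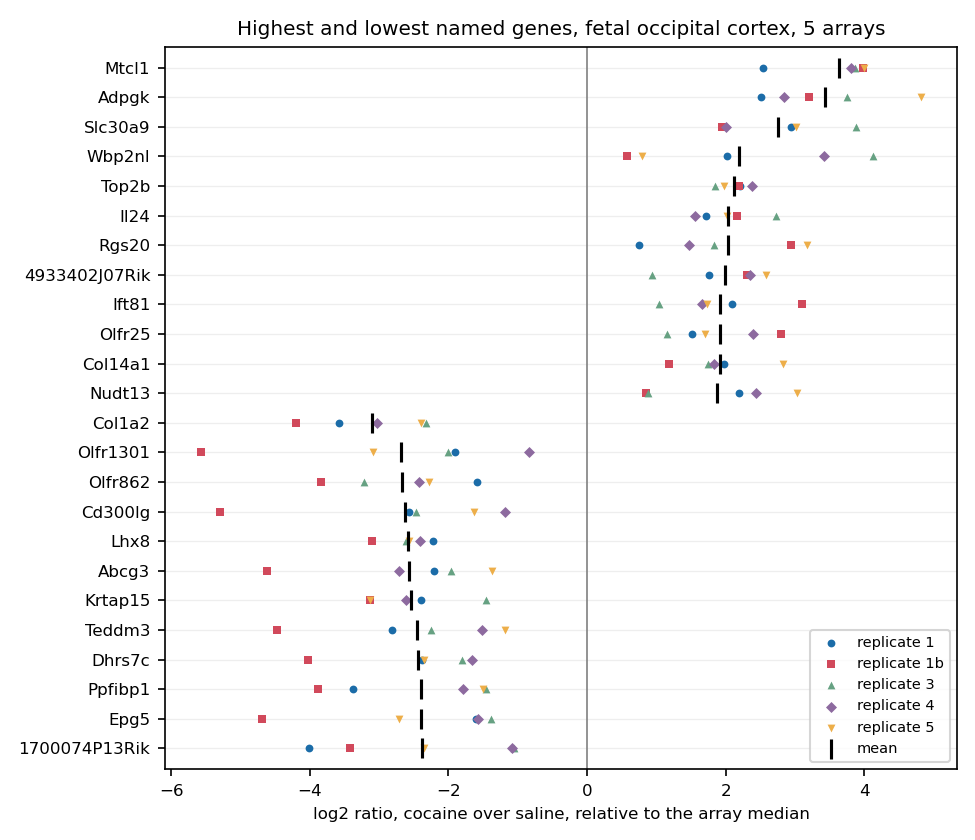
Log2 ratio of cocaine over saline on each of the 5 fetal occipital arrays for the 12 highest and 12 lowest named genes, with symbols for arrays and a bar for the mean. Mtcl1 lies between 2.54 and 4.0 and Col1a2 between -4.20 and -2.32; replicate 1b is far below the other arrays for Olfr1301 and Cd300lg.

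Place on the slide and brightness moved with the calls over all probes as well. The last 21 places of the row held 25.2% of the lower and 3.00% of the higher calls, and the first 21 places 23.7% of the higher and 2.97% of the lower. After removal of the position trend the last 21 places held 12.0% of the lower and 17.9% of the higher calls. A score of probe brightness, built from the same ratios because no intensities were at hand, ran the same way: the brightest 10% of probes held 38.3% of the higher and 1.38% of the lower calls, and the dimmest 10% held 0.25% and 18.5%. The ratio correlated positively with this score on every array, with Spearman coefficients across probes from 0.02 in replicate 1 to 0.51 in replicate 5. Among the named rises, the probes of Mtcl1, Adpgk, Slc30a9, Wbp2nl, Top2b, Il24, Rgs20, Ift81 and Olfr25 lay at percentile 98.2 of the score or above. Those of Nudt13, 4933402J07Rik and Col14a1 lay at 84.3 to 86.7, and those of the named falls at 6.18 to 91.9. With position and brightness trends removed together 3 probes passed (0.0133%), 2 higher (0.00886%) and 1 lower (0.00443%), namely Mtcl1 at 2.48 ± 0.23 (limma adjusted p = 0.0239), Col1a2 at -3.18 ± 0.35 (limma adjusted p = 0.0373) and a probe without a gene symbol. Top2b was then at 0.57 ± 0.30 and Rgs20 at 0.53 ± 0.24, and neither passed. With the brightness trend alone removed 3 passed as well, Col1a2 at -3.68 ± 0.32, Lhx8 at -2.46 ± 0.21 and another probe without a symbol. Mtcl1 was the one probe left without replicate 1; without replicate 1b the 5 were Mtcl1, Adpgk, Slc30a9, Col1a2 and Lhx8. The part of either trend in the other calls was not tested.

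Genes with several probes give a further view of these calls. Among 1193 such genes 181 had 1 probe that passed and 12 had 2 or more, 9 of these 12 in one direction and 3 in both. Those 3 were Col14a1, the ubiquitin ligase scaffold Cul5 (1.20 ± 0.24 and -1.45 ± 0.27) and the phospholipase Plcb2 (1.10 ± 0.25 and -0.94 ± 0.24). In the fit without the position trend the lower Cul5 probe (-1.35 ± 0.25) and the higher Col14a1 probe passed, and the other 4 did not. Odorant receptor genes, which cortex hardly expresses, passed about as often as all probes in the fit as reported: of 803 probes 18 were higher and 45 lower, or 7.85%. In the fit without the position trend 7 were higher and 36 lower, or 5.35%, beside 3.22% of all probes.

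Among 30 measured immediate early genes, in tissue taken 1 h after the last injection, 1 rose and 2 fell. These 3 calls are 10% of the list, a share near the 7.72% of all probes, and the list had a median of -0.11 against -0.03 over all probes. Jun, a partner in the AP-1 factor, read 1.04, 0.93, 0.74, 0.90 and 0.82. All arrays were close together above 0, and the mean was 0.88 ± 0.22 (limma adjusted p = 0.0492). Npas4, a factor induced by calcium entry in neurons, read -0.85, -0.75, -1.13, -0.95 and -1.03. All arrays were below 0 within a narrow range, and the mean was -0.94 ± 0.22 (limma adjusted p = 0.0452). Dusp6, a phosphatase of ERK kinases, read -0.83, -0.72, -1.05, -0.76 and -2.07, where replicate 5 was far below the rest; its mean was -1.09 ± 0.28 (limma adjusted p = 0.0497).

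After removal of the position trend 0 of the 30 passed. Jun was then at 0.32 ± 0.25, Dusp6 at -0.28 ± 0.26 and Npas4 at -0.90 ± 0.23 (limma adjusted p = 0.0549). The Npas4 probe was at percentile 11.4 of the brightness score. Fos had 2 probes on either side of 0, at 0.64 ± 0.27 and -0.25 ± 0.31. The first was above 0 on 4 of 5 arrays and neither passed. Egr1 (-0.02 ± 0.25), Arc (0.10 ± 0.28), Junb (0.22 ± 0.28), Fosb (-0.40 ± 0.26) and Bdnf (0.00 ± 0.43) did not pass either. Egr1 and Arc had arrays above and below 0. Ptgs2, the inducible prostaglandin synthase, averaged -1.29 ± 0.36 and Ier2 -1.03 ± 0.27, both below 0 on 5 of 5 arrays without passing. The direction of Ier2 did not hold without the position trend, where its mean was 0.08 ± 0.23, and Ptgs2 was then at -0.57 ± 0.28.

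In the dopamine system 1 of 18 measured genes fell, 0 rose and the other 17 missed the threshold. This call is 5.56% of the list, beside 7.72% of all probes. The median was -0.11, or 0.05 without the position trend. Ppp1r1b, the phosphoprotein DARPP-32 that relays D1 receptor signals, read -1.46, -3.35, -0.92, -0.76 and -1.89. Replicate 1b was the lowest, and the mean was -1.67 ± 0.38 (limma adjusted p = 0.0423), or -0.38 ± 0.29 with the position trend removed. The dopamine transporter gene Slc6a3, a direct target of cocaine, read 0.25, -0.11, 1.43, 0.80 and -1.95. Its arrays lay on both sides of 0 and the mean was 0.08 ± 0.44. The synthesis enzyme genes Th and Ddc averaged 0.01 ± 0.34 and -1.59 ± 0.56, and replicate 1b was at -4.34 for Ddc. Ddc averaged -0.27 ± 0.29 without the position trend.

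Among receptors, Drd1 had 2 probes at -0.56 ± 0.24 and -0.04 ± 0.32, Drd2 averaged -0.23 ± 0.26, Drd3 0.88 ± 0.25 and Drd4 0.05 ± 0.26. None of them passed, although Drd3 was above 0 on all 5 arrays. Its mean was 0.28 ± 0.25 without the position trend and -0.31 without both trends. The vesicular transporter gene Slc18a2 averaged 1.01 ± 0.28 and was also above 0 on 5 of 5 arrays without passing; it was at 0.47 ± 0.23 without the position trend and -0.06 without both trends. Gch1, which makes the cofactor of tyrosine hydroxylase, read -0.43, -0.77, -1.22, -0.65 and -0.64. It was below 0 on every array with a mean of -0.74 ± 0.24 that did not pass, and it passed at -1.01 ± 0.22 (limma adjusted p = 0.0430) with the position trend removed. The 2 Gnal probes, for the G protein that couples D1 receptors in striatum, disagreed in sign at -1.72 ± 0.50 and 0.42 ± 0.28, the first moving to -0.43 ± 0.30 without the position trend. In the serotonin and noradrenaline list 0 of 20 genes passed; the smallest p values were those of the receptors Htr2b (-2.02 ± 0.53) and Htr1f (0.83 ± 0.23), which stood at -0.73 ± 0.22 and 0.07 ± 0.29 without the position trend.

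**Figure D3:**
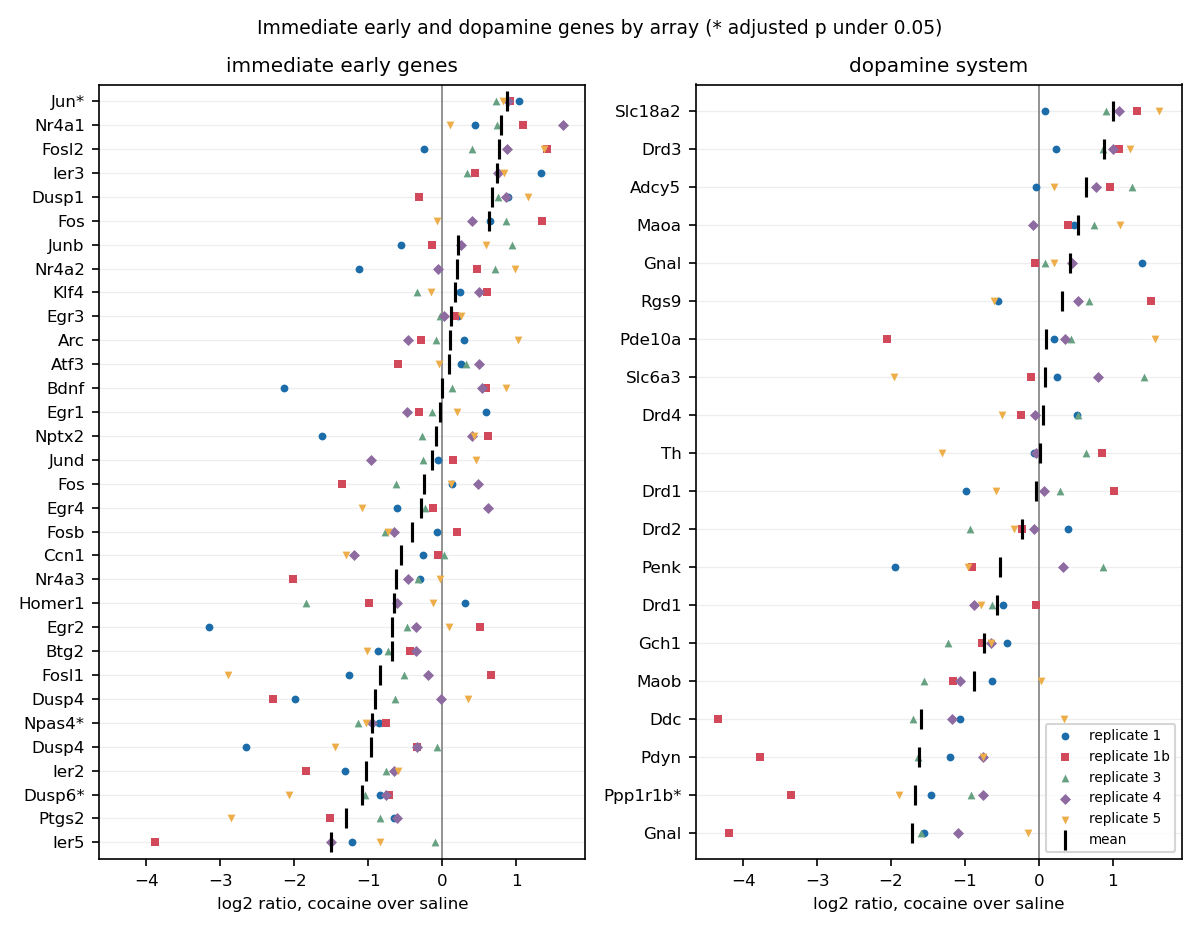
Log2 ratio of cocaine over saline on each of the 5 fetal occipital arrays for every probe of the immediate early genes (left) and of the dopamine system (right), ordered by the mean, with an asterisk where the adjusted p was under 0.05. Jun, Npas4 and Dusp6 carry an asterisk on the left and Ppp1r1b on the right; Ppp1r1b, Ddc, Pdyn and Gnal have replicate 1b far below the other arrays.

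Over all 36 lists 7.5% of 1013 list members tested passed, beside 7.72% of all probes. By list this share ran from 0% in 6 lists to 18.5% for heat shock and unfolded protein genes. It was 16.7% for thalamus and midbrain, 16.1% for oxidative stress, 15.8% for striatum and ventral forebrain and 15.6% for interneuron and GABA genes. Chemokines and cytokines (10.5%), cytoskeleton genes (9.52%), ribosomal proteins (8.96%) and axon guidance genes (8.20%) were nearer to all probes, and respiratory chain genes (1.41%) were below. Without the position trend 2.57% of them passed, beside 3.22% of all probes. Of 64 genes that passed and are named from the lists, 9 also passed without that trend: Col1a2, Il24, Top2b, Lhx8, Pdk4, Insm1, Spc24, Prim1 and Kl. The calls of the other 55 were lost, whichever list they came from. Of the 9, Col1a2 alone passed with position and brightness trends removed together.

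Chaperone and oxidative stress lists had more rises than falls as reported, and this did not hold without the position trend. The 27 heat shock and unfolded protein genes had 4 rises and 1 fall, 22 missing the threshold, and a median of 0.66. The protein disulfide isomerases Pdia3 (1.20 ± 0.26) and Pdia4 (1.30 ± 0.32) and the Hsp70 relative Hspa2 (1.27 ± 0.30) were among the rises. Atf4, a translation-controlled stress factor, read -1.29, -0.88, -0.98, -0.88 and -1.17, all arrays being close together below 0, and fell to a mean of -1.04 ± 0.23. The 31 oxidative stress genes had 5 rises and 0 falls, 26 missing the threshold, and a median of 0.29. The superoxide dismutase Sod1 (1.27 ± 0.27), the glutathione reductase Gsr (1.32 ± 0.29), the glutathione transferase Gsta1 (1.13 ± 0.29) and the ferritin light chain Ftl1 (1.13 ± 0.29) were among them. Sod1 had 11 probes and Gsr 2, and the value of each is that of its probe with the smallest p. Without the position trend 0 of the 27 heat shock genes passed, and the oxidative stress list had 1 rise, 1 fall and 1 gene whose probes disagreed. All 8 named genes lost their calls, Gsta1 at 0.95 ± 0.25 (limma adjusted p = 0.0627) and Ftl1 at 0.59 ± 0.30 (limma adjusted p = 0.228) having the smallest and the largest p of the 8. With position and brightness trends removed together the medians of both lists were 0.01 and 0.05, and their probes lay at median percentiles 78.3 and 74.5 of the brightness score.

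Cytosolic ribosomal protein genes had 6 of 67 higher, 0 lower and 61 that did not pass, and a median of 0.51. The arrays differed: the medians of the list's probes were 0.07, 0.80, -0.11, 0.435 and 1.31 on replicates 1, 1b, 3, 4 and 5. Rps19 read 1.5, 1.68, 0.64, 1.53 and 1.49, replicate 3 being the low array, with a mean of 1.37 ± 0.25. Rpl34 (1.83 ± 0.32), Rplp0 (1.53 ± 0.32) and Rplp1 (1.39 ± 0.28) also rose. With the position trend removed the median was still 0.52 and 0 passed; with both trends removed it was 0.07, the probes lying at a median percentile of 91.6 of brightness. Respiratory chain genes had 1 of 71 higher and 0 lower, namely Cycs for cytochrome c (0.94 ± 0.23), with a median of 0.16. Cycs stood at 0.53 ± 0.23 without a call once the position trend was removed. In the hypoxia and glycolysis list 0 of 24 genes passed. Of 17 glucocorticoid response genes 1 fell, the pyruvate dehydrogenase kinase Pdk4, and the median of 0.68 was the highest of any list as reported, falling to 0.20 without the position trend. Pdk4 read -1.96, -0.60, -1.27, -1.23 and -1.92, with a mean of -1.40 ± 0.28, and -1.57 ± 0.23 with the position trend removed. Its probe was at percentile 2.69 of the brightness score, and with both trends removed it did not pass at -1.14 ± 0.22 (limma adjusted p = 0.0723).

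Cell death and survival genes had 3 calls in all. Of 36 death-promoting genes 1 rose, Cycs, and 0 fell. Of 17 survival genes the kinase Akt2 rose (1.24 ± 0.27) and the PI3 kinase subunit Pik3r1 fell (-1.66 ± 0.31), but with the position trend removed they stood at 0.57 ± 0.25 and -0.64 ± 0.36 and did not pass.

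Lists of cortical progenitors, newborn neurons and dividing cells held calls at 3.85% to 7.5% of their genes, no more often than the 7.72% of all probes. Of 26 radial glia genes 1 rose, the neural precursor factor Sox1, which read 1.18, 1.47, 1.17, 0.88 and 1.42. All arrays were alike in size, and the mean was 1.22 ± 0.23. Sox1 was at 0.70 ± 0.24 (limma adjusted p = 0.104) without the position trend, and its call was lost. Of 23 intermediate progenitor and newborn neuron genes 1 rose, Insm1, a zinc finger factor of basal progenitors. It read 1.45, 0.97, 1.07, 0.55 and 0.88, above 0 on every array, with a mean of 0.98 ± 0.24. Insm1 also passed with the position trend removed, at 1.26 ± 0.24 (limma adjusted p = 0.0344). Of 40 mitosis genes 3 fell and 0 rose: the cytokinesis exchange factor Ect2 (-2.02 ± 0.38), the kinetochore subunit Spc24 (-1.71 ± 0.32) and the mitotic kinase Cdk1 (-0.93 ± 0.24). Spc24 kept its call with the position trend removed (-1.55 ± 0.29), while Ect2 (-1.09 ± 0.28) and Cdk1 (-0.69 ± 0.23) did not. Of 50 DNA replication genes the clamp loader Rfc5 (1.16 ± 0.23) and the primase subunit Prim2 (1.41 ± 0.25) rose and the partner subunit Prim1 (-1.72 ± 0.29) fell. Prim1 passed at -1.25 ± 0.25 with the position trend removed; Prim2 (0.77 ± 0.22) and Rfc5 (0.61 ± 0.23) did not pass then.

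Neuronal lists went both ways. In the deep layer and subplate list Nxph4 rose (1.34 ± 0.31) and Moxd1 fell (-1.37 ± 0.35) of 20 genes, and without the position trend they were at 1.02 ± 0.35 and -0.57 ± 0.23 and 0 of the 20 passed. In the upper layer and Cajal-Retzius list 0 of 21 passed. Of 32 interneuron and GABA genes 3 rose and 2 fell. The interneuron factor Lhx6 (1.62 ± 0.36) and the peptide Npy (1.39 ± 0.32) were among the rises, at 0.99 ± 0.30 and 0.92 ± 0.28 without a call once the position trend was removed, while Lhx8 and the GABA-synthesising enzyme Gad1 fell. Gad1 read -1.32, -0.71, -2.25, -1.37 and -2.22, below 0 on every array, with a mean of -1.58 ± 0.30, and -1.05 ± 0.26 without that trend, which missed the threshold. The list then had 0 rises and 1 fall, Lhx8. Synaptic vesicle genes had 1 rise, Cplx2 (1.25 ± 0.24), and 1 fall, Doc2a (-1.32 ± 0.33), of 26, and glutamate receptors and transporters 1 fall, Grm8 (-0.95 ± 0.24), of 25. Grm8 stood at 0.03 with the position trend removed, and Cplx2 at -0.19 with both trends removed, so neither direction held. Doc2a stood at -0.54 ± 0.27 without the position trend and did not pass.

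Axon guidance genes numbered 3 rises, 2 falls and 56 that did not pass of 61. The semaphorin co-receptors Plxna1 (1.24 ± 0.25) and Plxna2 (1.28 ± 0.29) and the ephrin receptor Ephb1 (1.12 ± 0.24) rose, and the netrin Ntn4 (-1.63 ± 0.34) was among the falls. Among 42 cytoskeleton genes the kinesin Kif1a (1.49 ± 0.28) and the actin Actg1 (1.42 ± 0.33) rose, and the microtubule protein Map4 (-2.02 ± 0.37) and the light neurofilament chain Nefl (-1.38 ± 0.31) fell. None of these 8 genes passed with the position trend removed. Cortical area patterning genes had the lowest median of any list as reported, -0.37, with Wnt5a (1.14 ± 0.23) and the caudal factor Nr2f2 (1.46 ± 0.35) higher and Wnt3a (-1.50 ± 0.33) lower of 29. Without the position trend 0 of the 29 passed, Wnt5a being at 0.64 ± 0.24, Nr2f2 at 0.73 ± 0.32 and Wnt3a at -1.12 ± 0.29, and the median was -0.21. Of 57 chemokines and cytokines 3 rose and 3 fell. Besides Il24, Il4 (1.44 ± 0.26) and Ccl1 (1.48 ± 0.29) rose. Ccl8 read -0.81, -4.46, -3.25, -0.89 and -4.88, an uneven fall with a mean of -2.86 ± 0.62. Without the position trend Il24 kept its call at 1.86 ± 0.23. Il4 at 1.01 ± 0.25 (limma adjusted p = 0.0549), Ccl1 at 0.56 ± 0.23 and Ccl8 at -2.06 ± 0.50 (limma adjusted p = 0.0501) did not.

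Lists of markers of other cell types held between 0 and 2 calls each. Astrocyte (14 genes), oligodendrocyte (15) and blood cell (12) markers had 0 calls. Of 15 microglia and macrophage markers Adgre1 fell (-1.47 ± 0.30), and of 17 endothelial markers Egfl7 rose (1.11 ± 0.28) and Cdh5 fell (-1.71 ± 0.35). Abcc9 fell among 13 mural markers (-1.19 ± 0.26) and Kl among 9 choroid plexus markers (-1.48 ± 0.31). Of these 5, Kl alone passed with the position trend removed (-1.30 ± 0.28). Of 21 meningeal fibroblast markers Col1a2 fell and Col6a2 rose (1.64 ± 0.32), the latter at 0.88 ± 0.32 without the position trend and without a call. The other collagen genes of this list, shown after their values were seen, did not pass. Below 0 were Col5a1 (-1.22 ± 0.51), Col1a1 (-1.17 ± 0.64), Col6a1 (-1.15 ± 0.34), Col4a1 (-0.71 ± 0.30) and Col5a2 (-0.52 ± 0.31). Col3a1 was above it (0.45 ± 0.36). The median of this list was -0.17, and -0.23 without the position trend.

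Markers of neighbouring brain regions were likewise mixed. In the list for striatum and ventral forebrain Ikzf1 rose (1.47 ± 0.35) and Lhx8 and Ppp1r1b fell of 19, and the median was -0.27. In that for thalamus and midbrain Pitx3 rose (1.44 ± 0.28) and Pax7 (-1.24 ± 0.27) and En1 (-2.11 ± 0.49) fell of 18. Wnt3a was the 1 fall of 12 hippocampus and cortical hem markers. Of these 7 calls Lhx8 alone held without the position trend. Pitx3 was then at 0.73 ± 0.26, Pax7 at -0.43 ± 0.24, En1 at -0.83 ± 0.22 and Ikzf1 at 0.89 ± 0.27, and 0 of the 18 thalamus and midbrain markers passed. The part of dissection or of cell make-up in the falls of Col1a2 and Lhx8 was not tested, and levels of these markers were not at hand.

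**Figure D4:**
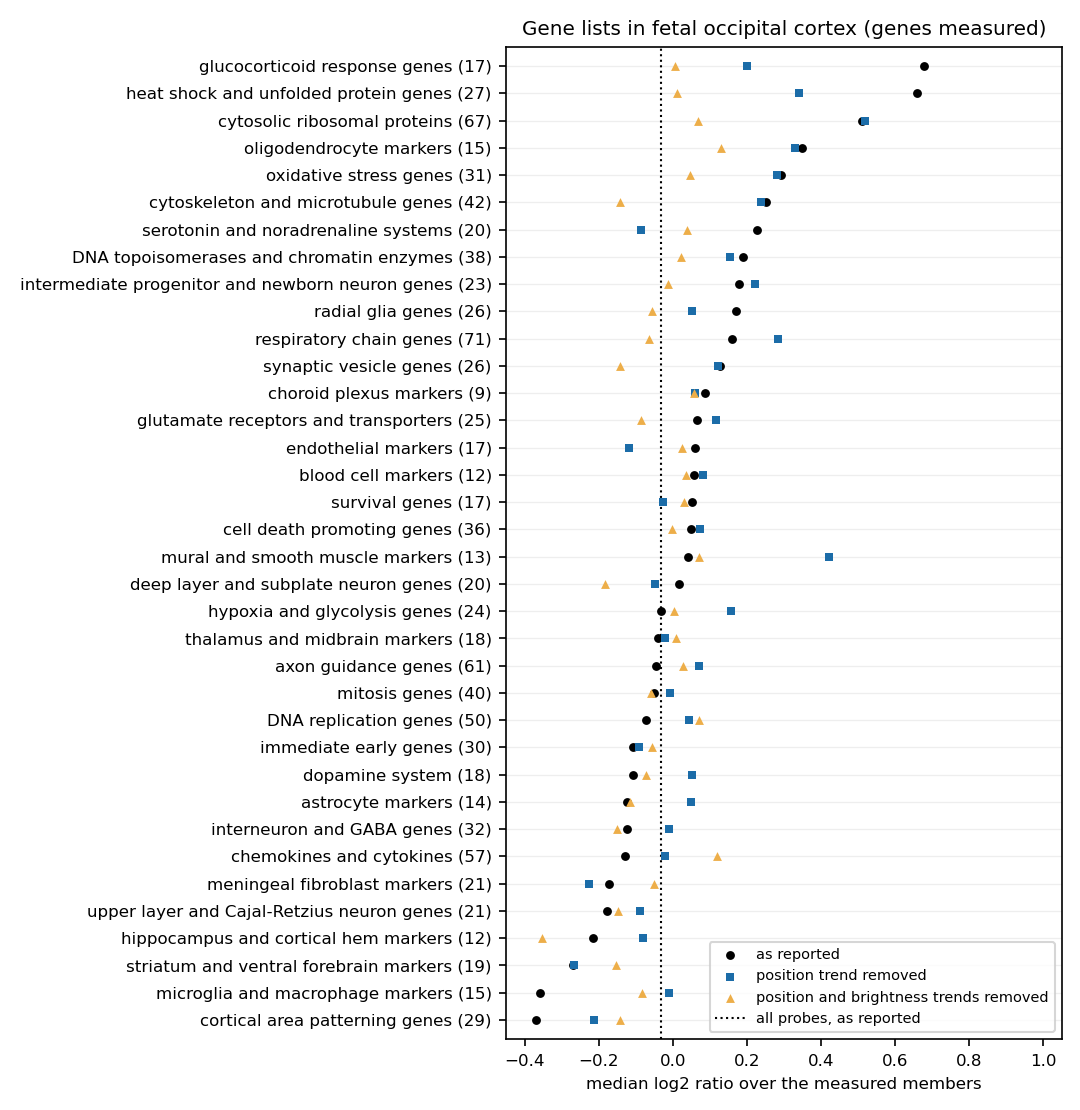
Median log2 ratio of cocaine over saline over the measured genes of 36 lists in fetal occipital cortex, as reported (circles), with the position trend removed (squares) and with position and brightness trends removed (triangles); the dotted line is the median of all probes. Medians run from -0.37 to 0.68 as reported; the ribosomal list moves from 0.51 to 0.07 when both trends are removed.

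Against fetal frontal cortex, the question was whether the response differed between regions of the same fetal wall. In the limma test of the difference 0 of 22573 probes passed (0%), with 2682 at an unadjusted p under 0.05 and a smallest adjusted p of 0.376. Robust regression gave 14 and the model over all 20 arrays 5, the latter Clec3b, Pdlim4, Dapp1, Gp1bb and a probe without a symbol, all lower in the occipital wall. Pdlim4, a PDZ and LIM domain protein, read -1.48, -2.38, -0.13, -1.36 and -1.61 in occipital cortex and averaged 0.78 ± 0.65 (SD, n = 5) in frontal cortex. The difference was -2.17 ± 0.46 and did not pass in the comparison of the 10 arrays, nor at -1.25 ± 0.42 without the position trend. Akap1 (-1.78 ± 0.38) and Vwa8 (1.85 ± 0.38) had similarly small p and did not pass. All 24 named occipital genes had a frontal mean of the same sign, but the share over all probes was not counted. On the fetal frontal arrays too the ratio followed the brightness score, with Spearman coefficients from 0.47 to 0.68. The part of brightness or of dye in the shared sign was not tested. For Mtcl1 the frontal mean was 3.70 with an SD of 2.34, wider than the occipital SD of 0.62. The difference for Top2b was -0.22 ± 0.40, for Col1a2 -1.59 ± 0.59 and for Lhx8 -1.87 ± 0.45, and none of the 24 passed.

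Against adult occipital cortex, which was taken on postnatal day 30 with exposure over before birth, 718 of 22568 probes passed (3.18%), 362 with a higher (1.6%) and 356 with a lower (1.58%) ratio in the fetus. With the position trend removed 811 passed (3.59%), 546 higher (2.42%) and 265 lower (1.17%). The count of 718 also changed with the arrays used. It was 0 without fetal replicate 1 or 4 and 4 without replicate 3, but 1045 without replicate 1b and 1560 without replicate 5. With any 1 of the 5 adult arrays left out it was 0. It was 0 too with arrays scaled to equal spread, with the array maximum kept or with the brightness trend removed.

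Mc1r, Med23, Dct, Ucn2 and Enpp6 stood at the upper end of this difference. Mc1r, the melanocortin receptor of pigment cells, read 0.54, 2.40, 0.95, 0.74 and 0.69 in fetal occipital cortex and -1.43, -0.24, -1.47, -1.69 and -1.88 on the adult arrays. The groups did not overlap, and the difference was 2.41 ± 0.43 (limma adjusted p = 0.0446). Dct, a melanin synthesis enzyme, read 0.93, 0.19, 1.98, 0.08 and 2.49 in the fetus and was below 0 on all 5 adult arrays, with a difference of 2.11 ± 0.47. Ucn2, a corticotropin-releasing peptide, differed by 2.07 ± 0.43, and the Mediator subunit Med23 by 2.12 ± 0.52. For Enpp6, an enzyme of oligodendrocytes, the difference of 2.05 ± 0.46 came from the adult side, since the fetal mean was 0.00 ± 0.33 and the adult mean -2.05.

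At the lower end Vamp2, the vesicle fusion protein of synapses, read -1.86, -4.07, -0.67, -0.09 and -1.21 in the fetus and 1.79, 1.42, 2.18, 1.40 and 0.94 in the adult. As reported the groups were on opposite sides of 0, and the difference was -3.12 ± 0.57 (limma adjusted p = 0.0446). Without the position trend fetal replicate 4 was at 0.76 and the fetal mean at -0.37 ± 0.30. Ucn3, a relative of Ucn2, differed by -3.14 ± 0.67 with fetal values from -2.71 to 1.56, so its fetal arrays did not share a sign. Zdhhc1 (-3.20 ± 0.60), Cyp4f14 (-3.19 ± 0.66) and Gm16740 (-3.22 ± 0.53) followed. With the position trend removed the difference was -2.06 for Vamp2, -2.20 for Ucn3, -1.83 for Cyp4f14 and -1.96 for Gm16740, and they still passed. Their fetal means did not pass against 0 in that fit, Ucn3 being at 0.27 ± 0.28, Cyp4f14 at 0.05 ± 0.27 and Gm16740 at -0.68 ± 0.32. The differences for Zdhhc1 at -1.90 and Med23 at 1.54 did not pass. Mc1r (2.12), Ucn2 (1.68), Dct (1.5) and Enpp6 (2.12) passed in that fit too.

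All 24 named fetal genes had an adult occipital mean of the same sign, again without a count over all probes. The Spearman coefficients of ratio and brightness score were 0.58 to 0.74 on the adult occipital arrays, and their part in the shared sign was not tested. Col1a2 (-2.42 ± 0.47), Cd300lg (-2.45 ± 0.61), Lhx8 (-1.66 ± 0.42) and Ppfibp1 (-1.97 ± 0.51) passed in the difference, being lower in the fetus. These genes had been picked for low fetal ratios, which are 1 side of this difference. Without the position trend Col1a2 passed at -2.14 ± 0.45, and Cd300lg (-1.36 ± 0.45), Lhx8 (-0.75 ± 0.45) and Ppfibp1 (-0.60 ± 0.30) did not. The adult means were -0.68 for Col1a2, -0.18 for Cd300lg, -0.92 for Lhx8 and -0.44 for Ppfibp1. For the other 20 the difference did not pass, among them Top2b, with an adult mean of 2.20 and a difference of -0.07 ± 0.35, and Mtcl1, with 3.25 and 0.38 ± 0.47.

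**Figure D5:**
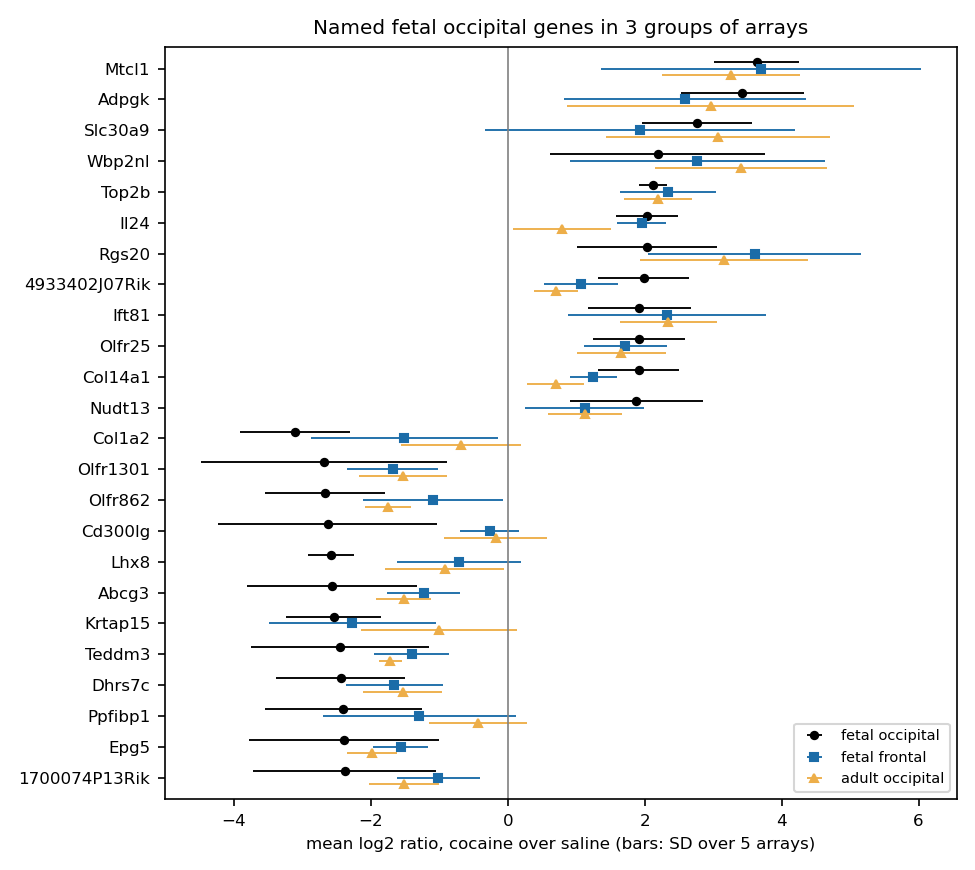
Mean log2 ratio of cocaine over saline for the 24 named genes in fetal occipital, fetal frontal and adult occipital cortex, with bars for the SD over 5 arrays. All means of a gene lie on the same side of 0; Col1a2, Cd300lg, Lhx8 and Ppfibp1 lie lower in fetal than in adult occipital cortex as reported, of which Col1a2 alone passed without the position trend, and Mtcl1 has its widest bar, an SD of 2.34, in fetal frontal cortex.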

How the data were processed

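RNA of cocaine-exposed and saline-exposed mouse cortex was hybridised to 2-colour Agilent slides, per the labels. The deposited values were read as log2 ratios, 1 column per array for 22575 probes. Read in this way, 95.9% of 565 ratios at 82 dim spots were quotients of whole numbers up to 20. The share under another base is not given here. The scanner, its software and any normalization step were not given in the sources used here. Values equal to the maximum of an array (6 to 18 on the fetal occipital arrays) were set to missing, the median of each array was subtracted, and a probe needed 3 values to be tested.

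The mean ratio of the 5 fetal occipital arrays was tested against 0 with limma 3.58.1 in R 4.3.3 (two-sided, moderated variances, Benjamini-Hochberg adjustment over all probes, threshold 0.05). Differences from fetal frontal and adult occipital cortex were tested in the same way on 10 arrays each. Replicates are separate slides with their own litters, per the labels, which is less sure for the 2 arrays that share a title number. The position trend was a 2-dimensional loess (span 0.05) over inferred rows of 215 probes, a row length at which neighbouring rows correlated at 0.24 to 0.50. The brightness trend was a loess (span 0.3) over a score, the mean log2 of the smallest whole numbers up to 400 that give a ratio within 0.001. The fits were tested on simulated data.

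Probes were named from the platform annotation (18218 with 1 gene symbol, 16 with several, 4341 with none); checking symbols against RefSeq changed 0. Named genes are the 12 highest and 12 lowest probes with 1 symbol, 5 values and the same sign on 5 arrays that passed as reported and with the position trend removed. From each list they are up to 4 members that passed, by smallest p, or the 2 with the smallest p. A list gene rose or fell where at least 1 of its probes passed and none passed the other way. Where only 1 value is given for a list gene with several probes, it is that of the probe with the smallest p. This holds for Sod1 with 11 probes and for Gsr, Rplp0, Cycs, Cplx2, Nefl and Plxna2 with 2 each. For differences they are up to 5 passing probes of largest size per direction, or 3 of smallest p where none passed; any immediate early or dopamine gene may be named. The members and the 36 lists were chosen with earlier results of these data known. Alternatives covered centring, scaling, filters, missing values, robust and weighted fits, a shared variance, a replicate block, averaged probes, a threshold of 0.1, removal of trends and leaving out arrays.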

Additional observations from a re-analysis of the deposited data

Results flagged for a closer look

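Among 132 values of named genes and list medians on the 5 fetal occipital arrays, 5 had 1 array whose gap to the nearest other exceeded Dixon's critical value of 0.71 times the range, and chance alone gives about 1 in 20. Mtcl1 was low in replicate 1, at 2.54, against values from 3.80 to 4.0. Dusp6 was low in replicate 5, at -2.07. The ribosomal protein gene Rps19 was low in replicate 3, at 0.64. Moxd1 was low in replicate 1b, at -2.89. The median of the glucocorticoid response genes was high in replicate 5, at 1.07.

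The limma test of fetal minus adult occipital cortex called differences for 14 named genes. Higher in the fetus were Mc1r (2.41), Med23 (2.12), Dct (2.11), Ucn2 (2.07) and Enpp6 (2.05). Lower in the fetus were Gm16740 (-3.22), Zdhhc1 (-3.20), Cyp4f14 (-3.19), Ucn3 (-3.14) and Vamp2 (-3.12), and, among the genes already named for their fetal ratio, Cd300lg (-2.45), Col1a2 (-2.42), Ppfibp1 (-1.97) and Lhx8 (-1.66). Without the position trend Med23, Zdhhc1, Cd300lg, Ppfibp1 and Lhx8 lost their calls. All 14 calls were lost when any 1 adult array was left out.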

How the results depend on the processing

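For the fetal occipital ratio against 0, 1743 probes as reported became 2720 with arrays scaled to equal spread, 5511 with quantile normalization, 5312 with array weights, 5761 with robust regression and 5576 with the variance of all 20 arrays. They became 1069 with a gene's probes averaged (fewer features tested), 5298 at a threshold of 0.1, 726 with the position trend removed, 3 with the brightness trend removed, 3 with both removed and 0 without replicates 1 and 1b. Leaving out 1 array gave 0 to 5. Alternatives chosen after seeing the data gave 403 with a position span of 0.3, and, with the position trend removed, 20 without replicate 5, 59 without replicate 1b, 1 without both replicates 1 and 1b and 3042 with the variance of all 20 arrays. The difference from fetal frontal cortex gave 0 probes except 14 with robust regression and 5 with the variance of all 20 arrays. That from adult occipital cortex went from 718 to 1090 without centring, 0 with scaling to equal spread, 1983 with quantile normalization, 0 with the array maximum kept, 3205 with array weights, 4386 with robust regression and 1148 with replicates 1 and 1b averaged. It was 398 without both of them, 0 with the brightness trend removed, 122 with both trends removed, 3375 at a threshold of 0.1, and 0 to 1560 when 1 array was left out. For none of these shifts was the cause tested, beyond fewer features or arrays. The 24 named genes kept the sign of their mean under every alternative run. They were chosen for the same sign on all 5 arrays and with the position trend removed. Leaving out, averaging or weighting arrays of the reported fit could therefore not turn their sign. Of the other named genes that passed as reported, signs turned for Grm8 (0.027 with the position trend removed, also with the variance of all 20 arrays, and 0.0053 without replicate 5 as well) and for Cplx2 (-0.19 with both trends removed). Of 52 immediate early and dopamine probes, called or not, 4 turned sign with the position trend removed, among them Ier2 (to 0.08), and 11 with both trends removed, among them Ier2 (0.42), Drd3 (-0.31) and Slc18a2 (-0.06). With the title number as a replicate block the frontal difference gave 0 probes and the adult difference 0, with and without the position trend. Deviations of same-numbered arrays correlated at -0.13 to 0.0083 with fetal frontal and -0.082 to 0.094 with adult occipital arrays. Position and brightness trends were still in these values, so they cannot decide whether the numbers pair the samples. Depth and signal over background are unknown, so the limits of dim probes cannot be given.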
